A study of Mus musculus with 7 samples.

Results

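The Ly49 receptors are surface lectins of mouse natural killer (NK) cells, encoded by the Klra genes in a cluster on chromosome 6. The 9 genes described here, Klra1, Klra3, Klra4, Klra5, Klra6, Klra7, Klra8, Klra9 and Klra10, were taken by name from a table of 53379 genes by matching Ensembl identifiers to mouse symbols. All 9 were found. The table holds RNA sequencing counts of NK cells sorted from spleens of the C57BL/6 strain, from 4 Hhex KO and 3 Cre control libraries. The sort took cells with CD45, NK1.1, NKp46 and CD49b and without CD3 on their surface. The Cre control group carries a Cre transgene, per its name. The column headers number Hhex KO replicates 1 to 4 as 26, 27, 28 and 95. Cre control replicates 1 to 3 are 20, 21 and 22 there. What these numbers stand for is not given. No source used here gives the Hhex allele, the Cre line, the age of the mice or whether each library came from a separate animal, so p-values measure the spread between these libraries, which may be technical. The comparison asks how loss of Hhex, a homeobox transcription factor, changes NK cell RNA.

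Ly49 receptors read the class I MHC molecules of neighbouring cells. Inhibitory members carry an immunoreceptor tyrosine-based inhibitory motif (ITIM) near the start of the protein, which recruits phosphatases such as SHP-1 and restrains killing. Activating members lack the motif and signal through adaptors such as DAP12. Each NK cell expresses its own subset of members, so that the level in sorted cells is set both by how many cells express a gene and by how much RNA each of them makes, and these cannot be told apart here.

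The coding starts of the 9 genes are shown because they divide the family into these classes. Each line gives the first 36 bases of the coding sequence in the GENCODE M21 transcripts, on the minus strand of GRCm38 (mm10), and the capitals mark codon 8, the ITIM tyrosine position of the inhibitory members.
Klra1: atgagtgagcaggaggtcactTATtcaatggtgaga
Klra3: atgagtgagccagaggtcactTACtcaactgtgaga
Klra5: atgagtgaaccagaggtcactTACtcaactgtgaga
Klra6: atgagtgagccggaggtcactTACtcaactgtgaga
Klra7: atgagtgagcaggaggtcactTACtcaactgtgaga
Klra9: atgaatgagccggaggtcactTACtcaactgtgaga
Klra10: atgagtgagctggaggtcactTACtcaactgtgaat
Klra4: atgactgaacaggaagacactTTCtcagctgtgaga
Klra8: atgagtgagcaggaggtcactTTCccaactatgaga

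The 9 genes lie between bases 129898996 and 130386874 of chromosome 6, all on the minus strand, and none shares exon bases with another annotated gene. In order of position they are Klra5 (129898996 to 129917650), Klra6 (130013033 to 130026954), Klra4 (130043731 to 130067271), Klra8 (130115226 to 130129898), Klra9 (130178675 to 130193112), Klra7 (130218605 to 130233322), Klra10 (130269194 to 130281928), Klra3 (130323289 to 130337574) and Klra1 (130363917 to 130386874). Codon 8 was a tyrosine codon (TAT or TAC) in 7 members and TTC in Klra4 and Klra8, the activating pair. Counted from the A of the start codon of Klra1, the middle base of this codon carried A23T in both. Its last base also differs from the TAT of Klra1, but not from the TAC of the other inhibitory members. Whole coding sequences were 74% to 96.9% identical between members. Klra3 (which encodes Ly49C), Klra9 (Ly49I) and Klra10 (Ly49J) were the closest, at 95.9% identity between Klra3 and Klra9, 96.2% between Klra3 and Klra10 and 96.9% between Klra9 and Klra10. Klra7 (Ly49G) and Klra8 (Ly49H) were the most distant.

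Such likeness bears on the counts, since reads of 75 bases can come from a stretch that several genes share. Of all 75-base windows of each gene's transcripts, 80.3% (Klra8) to 100% (Klra5 and Klra6) were found in no other gene of the annotation. Klra8 shared 177 of its 1104 windows with the pseudogene Klra14-ps and 32 with Klra9. Klra9 shared 32 of its 1277 windows with Klra3, 41 with Klra10 and 70 with the pseudogene Klra11-ps. Klra4 (99.7% of windows its own) and Klra1 (99.8%) shared almost none. No source used here says how reads that map to several genes were counted, so values of Klra8, Klra9, Klra10, Klra3 and Klra7 are less certain than those of Klra1, Klra4, Klra5 and Klra6.

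The libraries held 10589915 to 18456404 counts each, and the 9 genes took 0.206% to 0.332% of them. Hhex itself was at 96.1, 95.6 and 93.5 counts-per-million (CPM) in Cre control replicates 1 to 3 and at 58.0, 56.5, 54.2 and 64.8 CPM in Hhex KO replicates 1 to 4. This fall was past the threshold of adjusted p = 0.05 (log2 fold change -0.70 ± 0.10 SE, edgeR quasi-likelihood test, adjusted p = 0.00768; 0.0516 without Cre control replicate 1). The markers used in the sort were present. Ptprc (CD45) was read at 2817 CPM or more in every library, Ncr1 (NKp46) at 791 or more, Klrb1c (NK1.1) at 1179 or more and Itga2 (CD49b) at 380 or more, and none of these 4 passed the test. Ptprc was nevertheless lower in each Hhex KO library than in any control (log2 fold change -0.33, adjusted p = 0.308), and was called lower with limma-voom and quality weights (-0.46, adjusted p = 0.0182) and without Hhex KO replicates 1 and 4 (-0.52, adjusted p = 0.00735). Of 8 NK defining genes, 0 were called with edgeR and 2 had an unadjusted p below 0.05. The highest Cd3e level was 25.7 CPM. Hhex KO replicate 1 stood apart, with Mki67, a proliferation gene, at 223 CPM against at most 55.1 CPM elsewhere, and with the B cell gene Ms4a1 at 9.91 CPM against at most 1.09 CPM. Mki67 was also higher in each Hhex KO library (32.5 CPM or more) than in any control (26.3 CPM or less). Its log2 fold change was 2.58 (edgeR adjusted p = 0.109), and 19.3% of all tested genes had groups without overlap. Hhex KO replicate 2 stood apart in the myeloid genes S100a8, S100a9 and Lyz2, at 112, 146 and 200 CPM against at most 18.3, 26.5 and 86.1 CPM elsewhere. Hhex KO replicates 1 and 4 also differed from replicates 2 and 3 in the nuclear-retained RNAs Malat1 and Neat1, given below.

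To compare genes with each other, counts were divided by the length of the gene's exons. On this scale, CPM per kilobase of exon, the 9 genes spanned more than 2 orders of magnitude. Klra4, which encodes the activating receptor Ly49D, had the highest level in all 7 libraries, at 781 ± 124 (mean ± SD, n = 7). Klra8, which encodes Ly49H, the activating receptor for the m157 protein of mouse cytomegalovirus, was second in all of them, at 469 ± 65.7. Klra9 (Ly49I) and Klra7 (Ly49G), at 345 ± 113 and 332 ± 43.5, held the next places, and their order turned with the group. Klra9 was above Klra7 in all 3 Cre control libraries (445 ± 76.3 against 345 ± 18.6) and below it in all 4 Hhex KO libraries (270 ± 63.6 against 323 ± 57.1). Next came Klra3 (Ly49C), at 126 ± 23.2, and Klra1 (Ly49A), at 90.5 ± 13.9, with Klra3 the higher in every library except Hhex KO replicate 2. Far below these came Klra6 (Ly49F) at 19.5 ± 2.10, Klra10 at 12.4 ± 8.25 and Klra5 (Ly49E) at 7.02 ± 1.18. Klra10 stood between rank 7 and rank 9 depending on the library. Dividing by the windows found in no other gene, in place of exon length, left the order of the means as it was. With that divisor, however, Klra9 and Klra7 were nearly level in Hhex KO replicate 4, and Klra9 was no longer below Klra7 there.

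**Figure D1:**
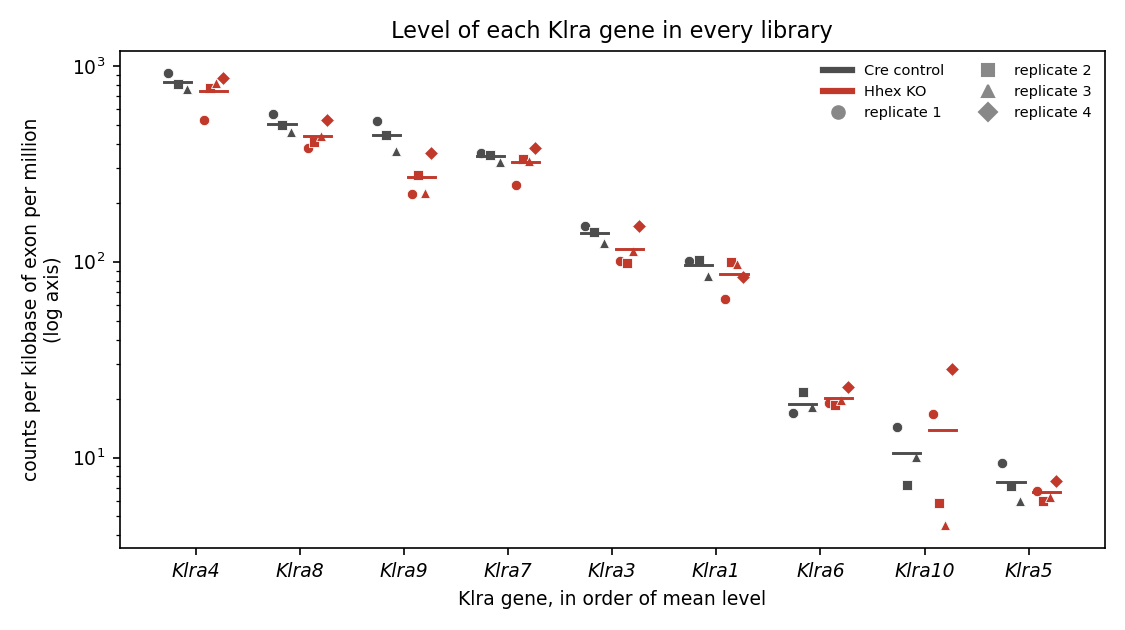
Level of the 9 Klra genes in each library, in CPM per kilobase of exon on a log axis, with Cre control in grey and Hhex KO in red; marker shapes give the replicate and horizontal lines the group means. Klra4 is highest in all 7 libraries, Klra9 is the gene whose groups do not overlap, and Klra10 spreads from 4.51 to 28.2.

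The rest of the cluster was also read. The pseudogenes Klra14-ps and Klra13-ps had levels of 157 ± 38.1 and 155 ± 108 CPM per kilobase, means above those of Klra3 and Klra1. Klra11-ps was at 2.78 ± 1.82. Klra17 (Ly49Q) and Klra2 (Ly49B), members known from myeloid cells rather than NK cells, had 1 to 16 and 0 to 18 counts per library and did not pass the filter on low counts.

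All 9 genes passed that filter, and with edgeR 0 of them rose and 0 fell between Hhex KO and Cre control at adjusted p below 0.05. Over all 12161 genes tested, 4.56% were called in either direction, 2.68% higher and 1.87% lower. At an unadjusted p below 0.05 there was 1 member, Klra9. With DESeq2, 0 rose and 1 fell, again Klra9, while 3.86% of all genes tested there were called lower. The log2 fold change, Hhex KO over Cre control, was below 0 for 7 members and above 0 for 2, with a median of -0.16 against 0.02 over all tested genes. Of all tested genes, 47.3% lay below 0. In simulated data the edgeR fit recovered 8 of 67 genes changed 1.5-fold, so changes of that size would mostly be missed here.

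**Figure D2:**
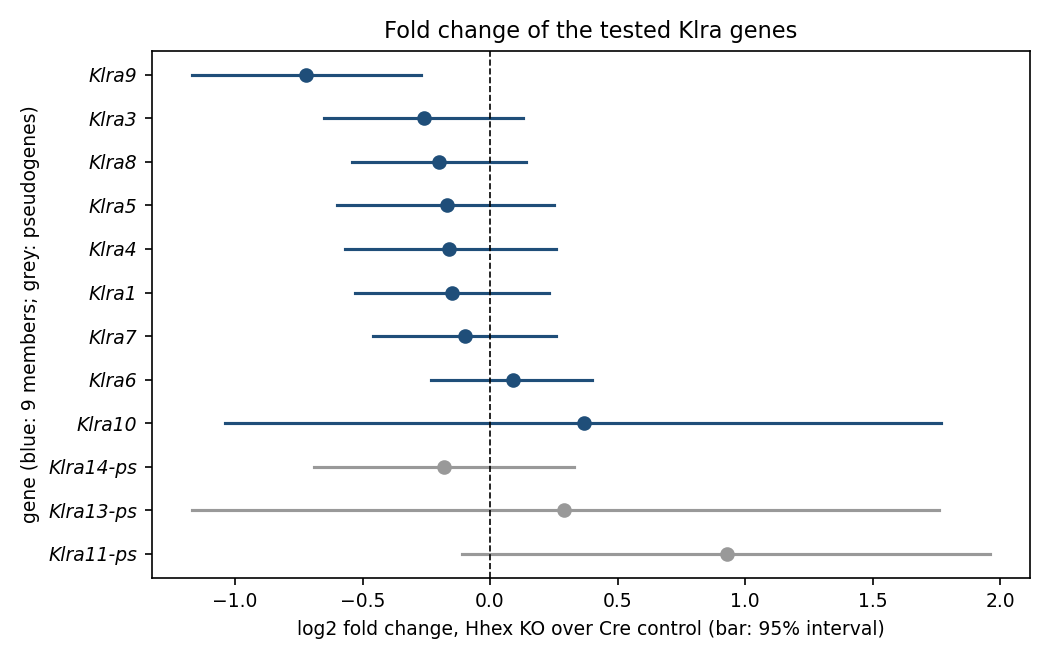
Log2 fold change (Hhex KO over Cre control) of the 12 tested Klra genes with 95% intervals from the edgeR fit, members in blue and pseudogenes in grey. The interval of Klra9, from -1.17 to -0.27, is the one that leaves out 0, although its adjusted p is 0.0844; the interval of Klra10 runs from -1.04 to 1.77.

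Among the inhibitory members, Klra9 showed the lowest values relative to control. Its receptor, Ly49I, binds class I MHC of the b haplotype, which C57BL/6 mice carry. Klra9 was at 667, 566 and 472 CPM in Cre control replicates 1 to 3 and at 284, 353, 286 and 458 CPM in Hhex KO replicates 1 to 4. These came from 4391 to 8907 counts per library. The groups did not overlap, though Hhex KO replicate 4, at 458 CPM, was close to the lowest control, at 472 CPM. Of all tested genes, 19.3% had groups without overlap, and 9.98% were lower without overlap. The other 8 members overlapped. The fold was 0.607 (log2 fold change -0.72 ± 0.20 SE, edgeR adjusted p = 0.0844, lower in 4 of 4 Hhex KO libraries than in any control). The call turned on the procedure. It passed 0.05 with DESeq2 (adjusted p = 0.0112), with no filter on low counts (0.0308), with limma-voom and sample quality weights (0.00618) and without Hhex KO replicate 4 (0.0177). Leaving out any other single library gave adjusted p values of 0.140 to 0.316.

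Klra3, the close relative of Klra9, encodes Ly49C, another inhibitory receptor that binds class I MHC of the b haplotype. Its levels were 189, 176 and 153 CPM in Cre control and 125, 122, 141 and 189 CPM in Hhex KO. Hhex KO replicates 1 to 3 lay below every control and replicate 4 reached the highest of them (log2 fold change -0.26 ± 0.17 SE, adjusted p = 0.480). The ratio of Klra9 to Klra3 per kilobase was 3.42, 3.12 and 2.98 in the control libraries, against 2.21, 2.81, 1.97 and 2.34 in the knockout libraries. These did not overlap, but neither did Klra9 itself, on whose counts the ratio rests.

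The upstream sequences of Klra9 and Klra3 are shown because Klra9 was the member at an unadjusted p below 0.05 and the window of Klra3 was the most like its own among the members, at 85% identity over the full windows. Each is the RefSeq window of 300 bases from 250 bases before to 50 after the gene's start, on GRCm38.p6, minus strand, at chr6:130193063-130193362 for Klra9 and chr6:130337577-130337876 for Klra3. Capitals mark bases that differ from the other gene or face a gap within the aligned stretch.
Klra9: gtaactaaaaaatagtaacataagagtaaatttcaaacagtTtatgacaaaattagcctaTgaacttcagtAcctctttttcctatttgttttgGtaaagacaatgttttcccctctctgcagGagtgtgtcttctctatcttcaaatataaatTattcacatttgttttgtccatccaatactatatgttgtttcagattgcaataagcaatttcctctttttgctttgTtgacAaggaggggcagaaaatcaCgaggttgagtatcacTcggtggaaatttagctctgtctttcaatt
Klra3: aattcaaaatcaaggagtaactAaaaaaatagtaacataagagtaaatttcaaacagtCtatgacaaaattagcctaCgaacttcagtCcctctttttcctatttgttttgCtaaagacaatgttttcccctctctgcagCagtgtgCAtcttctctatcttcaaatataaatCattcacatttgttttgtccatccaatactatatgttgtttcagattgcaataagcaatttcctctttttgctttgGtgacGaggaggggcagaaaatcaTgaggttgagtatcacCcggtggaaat

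Over 284 aligned positions the windows shared 271 bases, differed at 10 and had gaps at 3. All 9 members had a RefSeq window, 11 windows in all, since Klra7 and Klra8 have alternative starts. On both strands, the homeodomain core TAATTA was in 0 of the 11 windows and in 5.29% of 32851 windows of all genes. The RUNX core TGTGGT was in 1 (Klra1), against 16.8% of all windows, and the TCF/LEF core CTTTGA was in 3 (both of Klra7 and that of Klra6), against 16%. The letters alone do not show what binds.

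Klra7 encodes Ly49G, an inhibitory receptor that many NK cells of this strain carry. It was at 454, 445 and 410 CPM in Cre control and at 310, 423, 415 and 484 CPM in Hhex KO, and the groups overlapped. Klra1, which encodes Ly49A, an inhibitory receptor for class I MHC of the d haplotype, was at 178, 180 and 149 CPM in Cre control and at 113, 176, 173 and 148 CPM in Hhex KO. For both, Hhex KO replicate 1 was the lowest library. The other Hhex KO libraries lay within the control range, except replicate 4, which was above it for Klra7 and just below it for Klra1. The log2 fold changes were -0.10 (95% interval -0.46 to 0.26, adjusted p = 0.831) for Klra7 and -0.15 (-0.53 to 0.23, adjusted p = 0.736) for Klra1. Without Hhex KO replicate 1 that of Klra7 was 0.01.

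The low inhibitory members gave few counts. Klra6 (Ly49F) had 251 to 376 counts per library, and its levels of 18.8, 24 and 20.3 CPM in Cre control overlapped those of 21.2, 20.7, 21.9 and 25.7 CPM in Hhex KO. Klra5 encodes Ly49E, the member best known from fetal NK cells. It had 114 to 174 counts, at 13, 10 and 8.43 CPM in Cre control and 9.39, 8.42, 8.78 and 10.6 CPM in Hhex KO. Neither passed the test, at log2 fold changes of 0.09 (interval -0.23 to 0.40) and -0.17 (-0.60 to 0.25). The latter was 0.01 without Cre control replicate 1.

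The activating genes were the most abundant and did not pass the test. Klra4 (Ly49D) was at 1141, 1010 and 944 CPM in Cre control and at 656, 957, 1018 and 1075 CPM in Hhex KO. Hhex KO replicate 1 was again the lowest, and the other 3 lay within the control range. The log2 fold change was -0.16 (95% interval -0.57 to 0.26, adjusted p = 0.750). Klra8 (Ly49H) was at 666, 586 and 541 CPM in Cre control and at 449, 483, 520 and 625 CPM in Hhex KO, where replicate 4 lay within the control range and the rest below it. Its log2 fold change was -0.20 (interval -0.54 to 0.14, adjusted p = 0.550).

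Because the members did not shift equally, the make-up of Klra RNA differed. Klra9 made up 19.6%, 18.6% and 17.1% of the summed level per kilobase of the 9 genes in the control libraries, against 14.0%, 13.7%, 10.9% and 14.7% in the knockout libraries. Klra7 made up 13.5%, 14.8% and 15%, against 15.5%, 16.6%, 16% and 15.7%. Neither gene's shares overlapped between groups, nor did those of Klra6, at 0.634% to 0.903% in control and 0.918% to 1.20% in knockout libraries. In CPM, 19.3% of all tested genes had groups without overlap. The share of Klra9 rests on the same counts as its CPM, which did not overlap either. The activating pair took 54.9% to 56.5% of the sum in control and 57.4% to 61.3% in knockout libraries. The sum itself was 2657, 2383 and 2153 CPM per kilobase in the control libraries, against 1583, 2018, 2053 and 2430 in the knockout libraries, and so overlapped. Shares add to a fixed total, so a lower share of Klra9 raises the others. No test was made of these sums and shares.

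**Figure D3:**
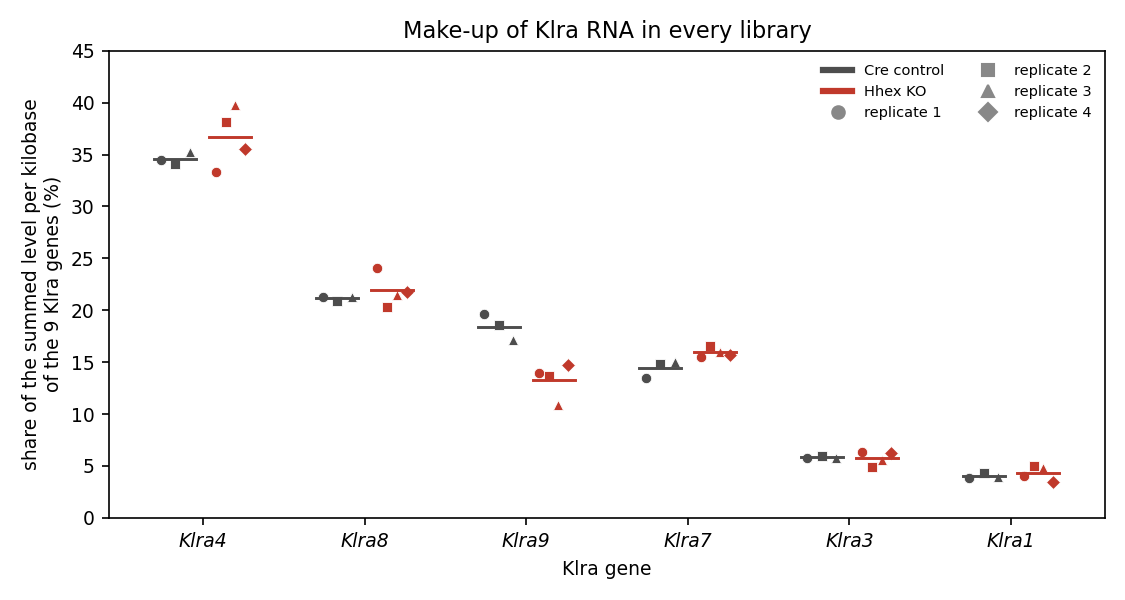
Share of each of the 6 most abundant Klra genes in the summed level per kilobase of the 9 genes, in percent, per library (points; grey Cre control, red Hhex KO, lines at group means). Klra9 lies at 17.1% to 19.6% in control and at 10.9% to 14.7% in knockout libraries, while Klra3 and Klra1 overlap between groups.

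Klra10, which encodes the inhibitory relative Ly49J, varied more between libraries than between groups. It was at 11.8, 5.98 and 8.32 CPM in Cre control and at 13.7, 4.81, 3.71 and 23.2 CPM in Hhex KO, from 63 to 262 counts. Hhex KO replicates 1 and 4 lay above every control, and replicates 2 and 3 lay below every control. The log2 fold change of 0.37 ± 0.61 SE (edgeR adjusted p = 0.837) turned to -0.24 without Hhex KO replicate 4. Without Hhex KO replicates 1 and 4, an alternative added after the data were seen, it was -1.05 (adjusted p = 0.0256). In that fit 14.3% of all genes were called lower, and so were Klra9 and Klra3.

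The pseudogene Klra13-ps, the next Klra gene upstream of Klra10 on the same strand, followed the same course. It was at 199, 94.9 and 134 CPM in Cre control and at 197, 66.5, 58.0 and 380 CPM in Hhex KO. Klra10 counts were 5.95% to 6.31% of Klra13-ps counts in control and 6.11% to 7.24% in knockout libraries, a nearly fixed ratio. The genes shared no 75-base window. Deviations of log2 CPM from the group means had a Pearson r of 0.998 between them over the 7 libraries, a value that 10 of 9467 genes (0.106%) reached with Klra13-ps. The course was not particular to this pair. Klra11-ps, which shares 41 windows with Klra10, had an r of 0.90 with Klra10 and 0.92 with Klra13-ps. For Klra14-ps these were 0.78 and 0.81.

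Neat1, a nuclear long RNA, moved beside both (r of deviations with Klra13-ps 1.00 when rounded). It was at 179, 68.7 and 112 CPM in Cre control and at 192, 43.1, 35.3 and 395 CPM in Hhex KO. Malat1, another nuclear RNA (r of 0.91 with Klra13-ps), was at 619, 243 and 382 CPM and at 918, 155, 138 and 650 CPM. The part of nuclear RNA in the values of Klra10 and Klra13-ps was not tested. The 6 abundant members differed in this respect: the r of deviations with Klra13-ps was -0.05 for Klra4, 0.07 for Klra7 and -0.56 for Klra1, and 0.50 for Klra8, 0.56 for Klra9 and 0.63 for Klra3. Among the members, Klra4 and Klra7 (0.96) and Klra8 and Klra3 (0.95) had the highest r, each over 7 libraries that share their scaling.

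**Figure D4:**
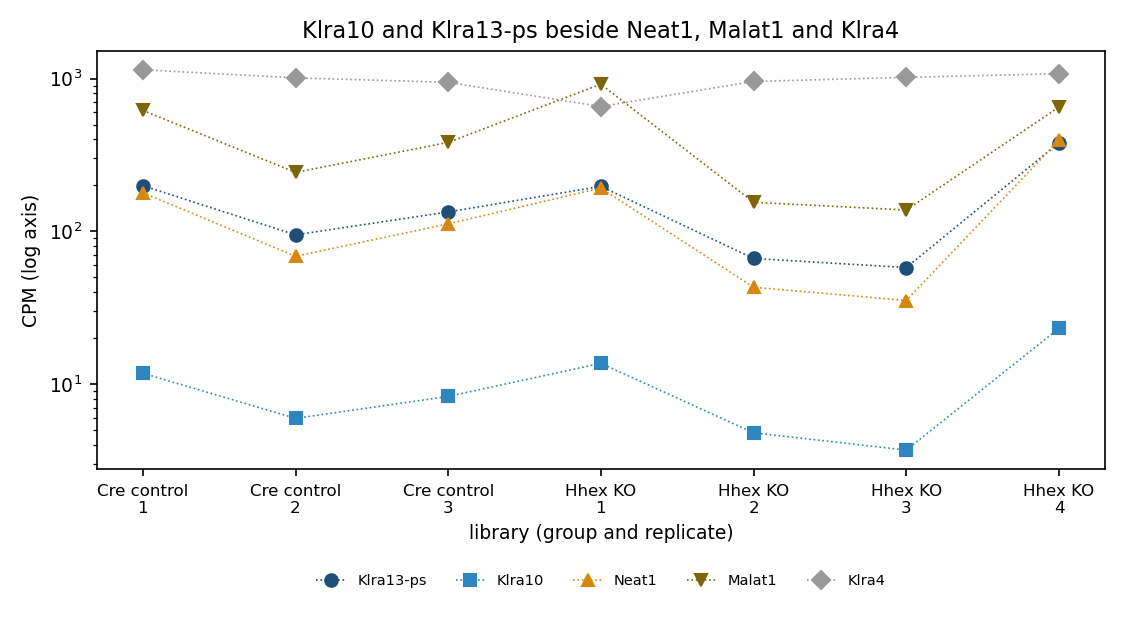
CPM (log axis) of Klra10, Klra13-ps, Neat1, Malat1 and Klra4 in each of the 7 libraries, by group and replicate. Klra10 and Klra13-ps are highest in Hhex KO replicate 4 and lowest in Hhex KO replicate 3, as is Neat1, whereas Klra4 is lowest in Hhex KO replicate 1.

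Of 12 tested genes for adaptors and proximal signalling, 0 rose and 0 fell (median log2 fold change -0.03; edgeR adjusted p below 0.05, and 0 with DESeq2; 0 at an unadjusted p below 0.05). Tyrobp, which encodes the DAP12 adaptor of the activating receptors, was at 1403, 1264 and 1068 CPM in Cre control and at 842, 1159, 1197 and 1236 CPM in Hhex KO. Hcst, the DAP10 adaptor gene, was at 140 ± 13 CPM (SD, n = 3) and 137 ± 22 CPM (SD, n = 4). Ptpn6, which encodes the SHP-1 phosphatase recruited by ITIMs, was at 191 ± 3.95 and 205 ± 13.7 CPM. Groups overlapped for each of these 3 genes. Over all genes tested with edgeR, 4.56% were called in either direction.

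On the ligand side, 0 of 10 tested class I MHC and antigen processing genes rose and 0 fell with edgeR and with DESeq2 (median 0.08; 1 at an unadjusted p below 0.05, Psmb9). H2-K1 was at 4354 ± 469 CPM in Cre control (SD, n = 3) and 4413 ± 914 CPM in Hhex KO (SD, n = 4), H2-D1 at 4229 ± 360 and 3846 ± 755 CPM and B2m at 3053 ± 316 and 3076 ± 663 CPM. These are the class I heavy and light chains that the NK cells themselves carry. The share of all genes called with edgeR was 4.56%.

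Of 10 genes linked to the acquisition of Ly49 receptors, 1 passed the test upward and 1 downward, with a median log2 fold change of 0.01. Over all tested genes, 2.68% were called higher and 1.87% lower. Lef1, a relative of the Ly49A regulator TCF-1, was at 44.4, 47.2 and 53.7 CPM in Cre control and at 83.9, 91.9, 97.2 and 72.4 CPM in Hhex KO (edgeR adjusted p = 0.0123). Nfil3, a factor needed for NK cell development, was at 97.3, 87.6 and 115 CPM in Cre control and at 61.5, 53.3, 41.7 and 38.8 CPM in Hhex KO (adjusted p = 0.0150). Neither overlapped between groups, and 19.3% of all tested genes had groups without overlap. Lef1 was not past 0.05 without Cre control replicate 1 (adjusted p = 0.0767) or 2 (0.0638), nor Nfil3 without Cre control replicate 1 (0.0766) or 3 (0.0887). Tcf7 itself, Runx3, Eomes and Tbx21 did not pass the test, nor did Runx1, whose groups did not overlap (169 ± 11 CPM in control and 132 ± 20.6 CPM in knockout libraries, log2 fold change -0.35, edgeR adjusted p = 0.236). Of the 10 genes, 3 had an unadjusted p below 0.05.

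Lists of cell state genes were read beside the Klra genes. These lists were chosen with earlier results of these data known, so their counts of calls are descriptive and show no enrichment. Of all tested genes, 2.68% were called higher and 1.87% lower. Of 9 NK maturation genes, Cx3cr1 rose, S1pr5, Cma1 and Ly6c2 fell and 5 did not pass the test. Their median log2 fold change was -0.52, and 7 had an unadjusted edgeR p below 0.05, in both directions. Of 8 genes of immature NK cells, Il7r, Thy1 and Emb rose, Kit fell and 4 did not pass. Their median was 0.57, and all 8 had an unadjusted p below 0.05, also in both directions. All 9 marker genes of type 1 innate lymphoid cells (ILC1), relatives that in other tissues express few Ly49 receptors, rose, and their summed level was 94.2 to 120 CPM in control and 498 to 675 CPM in knockout libraries. Leaving out 1 library ended calls in each list: S1pr5, Cma1 and Ly6c2 (adjusted p of 0.0507 to 0.163), Kit (0.0572 to 0.119), Thy1 and Emb (0.0600 to 0.0784), and Tnfsf10, Inpp4b and Cd200r1 of the ILC1 genes (0.0512 to 0.123). The part of ILC1-associated cells in the Klra values was not tested. Of the T cell, myeloid and erythroid markers tested, 0 of 5, 0 of 8 and 0 of 5 were called with edgeR, while 5, 0 and 0 had an unadjusted p below 0.05. Of 4 tested B cell markers, Cd22 and Cd79b rose (Cd79b at adjusted p = 0.0292, and 0.0507 to 0.148 without single libraries). The summed CPM of T cell markers was 54.5 to 82.1 in control and 76.9 to 148 in knockout libraries. That of B cell markers was 225 to 276 in control and 300 to 470 in knockout libraries, that of myeloid markers 529 to 928 and 701 to 1359, and that of erythroid markers 4.86 to 25.3 and 2.04 to 47.9. Their part in the Klra values was not tested.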

How the data were processed

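The deposited values are unnormalised counts for 53379 genes in 7 libraries. STAR alignment, featureCounts counting and the build mm10 are named in the submitters' processing notes, without versions. Reads were single-end, 75 bases, from a strand-marking kit, per the labels' protocols. The strand setting, the annotation release and the treatment of multi-mapped reads were not given in the sources used here. Columns were matched to samples by the labels, and 99.8% of gene identifiers matched a symbol without their version number. Totals were 10589915 to 18456404 counts, and within-group chi-square values per degree of freedom were 10.4 to 71.5, so every library counts as 1 replicate.

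Hhex KO was compared with Cre control by the edgeR 4.0.16 quasi-likelihood test (R 4.3.3), with TMM scaling, edgeR's expression filter (minimum count 10, minimum total 15), robust dispersions and no covariate. Benjamini-Hochberg adjustment ran over the 12161 tested genes. An exact permutation test of 4 against 3 libraries could not go below p = 0.0286. CPM use TMM-scaled library sizes. Levels per kilobase use the union of GENCODE M21 exons, and correlations use log2 of CPM plus 0.5. The 75-base windows were compared with all GENCODE M21 transcripts by exact match, since no genome sequence was used. Coding sequences were aligned with Biopython 1.88. On simulated data, the procedure recovered 8 of 67 genes changed 1.5-fold, 42 of 67 changed 2-fold and 58 of 66 changed 4-fold. Of its calls there, 10.0% were false. Most 1.5-fold changes were missed, so members that were not called may still have changed by that much.

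The members and gene lists were chosen with earlier results of these data known. The genes named are all Klra genes, Hhex, the sort markers, Tyrobp, Hcst, Ptpn6, H2-K1, H2-D1, B2m, called members of the lists and the 5 genes most like the summed Klra level. Psmb9, Runx1, Malat1, Neat1, Mki67 and the other marker genes were named after their values were seen. Alternatives were other scalings (RLE, upper quartile), leaving off the filter, a filter of 10 CPM in 3 libraries, DESeq2 1.42.0, limma-voom from limma 3.58.1, the same with sample quality weights, the replicate number as a block, and leaving out libraries.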

Additional observations from a re-analysis of the deposited data

Results flagged for a closer look

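Of 72 quantities examined over the 4 Hhex KO libraries, 4 had a library farther from the rest than Dixon's criterion allows, and chance alone flags about 1 in 20. Klra14-ps was at 241 CPM in Hhex KO replicate 4 and at 135 to 144 CPM in the other 3. Mki67, at 7.79 to 26.3 CPM in Cre control, was at 223 CPM in Hhex KO replicate 1 and at 32.5 to 55.1 CPM in the others. In the same library, Klra5 made up 0.424% of the summed Klra level per kilobase against 0.298% to 0.313% in the others. Klra6 made up 1.20% there against 0.918% to 0.954%.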

How the results depend on the processing

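Klra9 had a log2 fold change between -0.89 and -0.59 in all 16 alternatives and an adjusted p between 0.00523 and 0.316, below 0.05 in 6. The count of lower members, 0 in the edgeR fit, was 1 with no filter, DESeq2, limma-voom with quality weights and the replicate block, 3 without both Hhex KO replicates 1 and 4, and 0 to 1 with 1 library left out. Higher and lower genes over the whole table numbered 326 and 228. They numbered 186 higher with the stricter filter, 625 and 469 with DESeq2, 1541 and 1323 with quality weights, 499 higher with the replicate block, 1754 and 1790 without both Hhex KO replicates, and 91 to 527 and 50 to 291 with 1 library left out. Class I genes gave 1 higher with quality weights and 3 higher and 1 lower without both Hhex KO replicates, and the regulators gave 3 higher there, and 0 to 1 in each direction with 1 library left out. The cause was not tested.

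Signs turned for members and named genes near 0, and by more for Klra10 and Klra13-ps. In the edgeR fit of all libraries these 2 were at 0.37 ± 0.61 SE and 0.29 ± 0.64 SE. Klra10 was at -0.06 with limma-voom, -0.71 with quality weights, -0.40 with the block, -1.05 without both replicates and -0.24 to 0.66 with 1 library left out; Klra13-ps was at -0.05, -0.80, -0.58, -1.21 and -0.41 to 0.61. With 1 library left out, Klra5 ranged from -0.31 to 0.01, Klra7 from -0.19 to 0.01, B2m from -0.09 to 0.10, H2-K1 from -0.08 to 0.13, Hcst from -0.10 to 0.07 and Itga2 from -0.12 to 0.15. Klra1 was at 0.00 with quality weights and 0.04 without both replicates, where Hcst was at 0.12 and H2-D1 at 0.07; with quality weights Hcst was at 0.09 and H2-D1 at 0.01. With limma-voom, H2-K1 was at -0.01, B2m at -0.02 and Itga2 at 0.01, and Itga2 was at 0.02 with upper-quartile scaling, 0.01 with the stricter filter and 0.01 with the block.

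Libraries of the same number did not all deviate together (r of 0.33, 0.51 and -0.10 for numbers 1, 2 and 3). Between Cre control and Hhex KO libraries of different number, r was -0.54 to 0.30. So few pairs cannot decide whether libraries of the same number belong together, and no source used here says so. The replicate block, on the 6 libraries numbered 1 to 3, gave Klra9 -0.88 (adjusted p = 0.0220). No pair of members shared over 20% of its windows, so summing such members was not run. Low counts limit Klra5, Klra6 and Klra10.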

Other observations

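Among 9457 tested genes outside the family with a mean of at least 5 CPM, the 5 whose deviations from the group means followed the summed Klra level most closely were Gpn3 (r = 0.998), Sms (0.997), Pnrc2 (0.995), Get4 (0.994) and Mpc1 (0.993), over 7 libraries that share their scaling. Gpn3 was at 40.8 CPM in Cre control and 38.4 CPM in Hhex KO.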
